A study of Saccharomyces cerevisiae with 15 samples.

Results

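Translation initiation factor eIF3 is the multisubunit complex that holds the small ribosomal subunit, the mRNA and the other initiation factors together while a start codon is being found. The genes described here are the 8 genes of budding yeast that encode its 5 core subunits and its closest partners, and they were chosen by name. They are 8 of the 6600 genes counted, and all 8 passed the filter on low counts, as did 5851 genes in all. The core subunits are PRT1 (YOR361C, eIF3b), RPG1 (YBR079C, also called TIF32, eIF3a), NIP1 (YMR309C, eIF3c), TIF34 (YMR146C, eIF3i) and TIF35 (YDR429C, eIF3g). HCR1 (YLR192C, eIF3j) encodes a loosely bound subunit. TIF5 (YPR041W) encodes eIF5, which activates the GTPase of eIF2, and SUI1 (YNL244C) encodes eIF1, which keeps the scanning ribosome from stopping at the wrong codon.

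Within the complex, eIF3b is the subunit through which Tif34 and Tif35 are attached, and it also binds eIF3a. eIF3c provides contacts to eIF1 and eIF5. These factors and the eIF2 complex that carries the initiator tRNA form a larger assembly, the multifactor complex. Because PRT1 was raised from a plasmid in 1 strain, the question was whether the mRNAs of its partners moved with it.

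RNA sequencing had been performed on 5 strains with 3 biological replicates each, 15 libraries in all. All strains derive from 1 haploid mutant, rpc128-1007, whose lesion lies in RET1, also called RPC128, the gene for the second largest subunit of RNA polymerase III. Its background is MATa with his3, leu2-3,112, lys2-1, ura3-1 and ade2-1 markers and SUP11, an ochre suppressor tRNA gene. The strain written wt is not an unmutated strain: it is the mutant carrying native RPC128 on a centromeric URA3 plasmid. The strain written rpc128-1007 is the mutant with empty vector, whose marker is not given in the sources used here. [PRT1] is the mutant with a multicopy plasmid, for which the methods name a URA3 and a LEU2 version without saying which was sequenced, whose insert from chromosome XV holds the complete PRT1 gene and the 3′ part of its neighbour PRE10, which encodes a proteasome subunit. [RBS1] and [RBS1-R3H] are the mutant with multicopy LEU2 plasmids that carry RBS1, encoding an RNA-binding protein that promotes assembly of RNA polymerase III, or an allele with an inactive R3H domain. PRT1 and RBS1 are overdose suppressors of the mutant's cold sensitivity. Cultures were grown overnight in medium without uracil or without leucine and then to log phase in YPD without selection, so that cells may have lost plasmids. Labels do not say whether the replicates came from separate transformants, and p-values measure the spread between these cultures.

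Libraries held from 7365923 to 12164321 counted reads. Pairs of libraries of 1 strain differed by a chi-square of 8.97 to 63.6 a gene, so no 2 libraries agreed within counting error. Levels are given as CPM, counts brought to a common library size, after scaling with TMM factors, which adjust for library composition. Replicate 2 of rpc128-1007 and replicate 2 of [RBS1] stood apart in the dependence of level on gene length. Over 5699 genes, Spearman's correlation of a gene's deviation from its strain mean with its length was 0.56 and 0.50 in them. It was also high in [PRT1] replicate 1 (0.42) and low in [PRT1] replicate 3 (-0.46) and [RBS1] replicate 3 (-0.46). Replicates 1 and 3 of rpc128-1007 were at -0.33 and -0.38 and [RBS1] replicate 1 at -0.27. Since the mean is that of the strain's own 3 libraries, values within a strain depend on each other. The marker genes differed between strains. URA3 was at 2120 ± 152 CPM in rpc128-1007, 738 ± 13.9 CPM in wt, 971 ± 22.0 CPM in [PRT1], 197 ± 20.4 CPM in [RBS1] and 207 ± 20.4 CPM in [RBS1-R3H] (SD, n = 3 each). LEU2 was at 790 ± 106, 370 ± 52.0, 456 ± 81.6, 2395 ± 577 and 3760 ± 579 CPM in the same order. Comparisons between strains, those of [PRT1] and wt with rpc128-1007 included, thus also differ in the level of these markers. The part of marker and overnight medium in the results was not tested. RET1 and RBS1 matched the labels. RET1 was at 448 ± 21.6 CPM in wt and 207 ± 20.4 CPM in rpc128-1007 (SD, n = 3 each). RBS1 was at 4410 ± 180 CPM in [RBS1], 2986 ± 833 CPM in [RBS1-R3H] and 100.3 ± 31.2 CPM in rpc128-1007 (SD, n = 3 each).

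In R64, the yeast reference used here, all 8 genes lie in a single uninterrupted coding exon each and overlap no other annotated gene. PRT1 occupies chrXV:1015361-1017652 on the minus strand, and PRE10 lies 227 bases away at chrXV:1017880-1018746 on the same strand, upstream of PRT1. Coding lengths run from 327 bases in SUI1 to 2895 bases in RPG1. The authors had mapped the reads to another release, EF4, so these coordinates describe R64 only.

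The bases in front of the genes were searched for letters that many yeast promoters share. Within 250 bases before the start codon, on either strand, 8 motifs were looked for, and the choice was made after the levels had been seen. AAAATTTT, the ribosomal RNA processing element found before many genes of ribosome synthesis, occurred before 5 of the 8 genes and before 8.65% of 6002 protein-coding genes. With TGA directly in front of it, as in the longer form of the element, it occurred before 3 of the 8, RPG1, NIP1 and TIF5, and before 2.35% of all. The 5 stretches follow, written on the strand of the gene with AAAATTTT in capitals, to show what these promoters share:
RPG1, chrII:398355-398384: ttgccaggtgaAAAATTTTtcttggtgaac
NIP1, chrXIII:895569-895598: ttcgccgttgaAAAATTTTtcaatgagaaa
TIF35, chrIV:1325407-1325436: gtaacgaagttAAAATTTTtttctttcact
TIF5, chrXVI:648484-648513: gtaaatagtgaAAAATTTTcatcgcgaagt
SUI1, chrXIV:187644-187673: tgcgccggcaaAAAATTTTagttttttttt

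Between 88 bases (RPG1) and 201 bases (TIF5) separated the motif from the start codon. TTACCCG, the core of the site of the general regulatory factor Reb1, occurred before 3 of the 8 genes and 7.03% of all. Capitals mark it here on the strand of the gene, where CGGGTAA is the same site read from the other strand:
RPG1, chrII:398409-398438: ttatcacccacCGGGTAAagatgataattt
TIF5, chrXVI:648462-648491: aaatcatgctcTTACCCGttctgtaaatag
SUI1, chrXIV:187675-187704: caataacgggtCGGGTAAcagattttttcg

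RPG1, TIF5 and SUI1 thus held both motifs, and PRT1, TIF34 and HCR1 held neither. TGACTC, the core of the site of the activator Gcn4, was found before none of the 8 and before 6.25% of all genes. Of the remaining motifs, GATGAG (the PAC element) lay before TIF35 alone (17.0% of all) and CACCCA or CACCCG (Rap1) before RPG1 alone (8.51%). The Rpn4 site lay before none (1.13%). A pattern searched under the name Abf1 lay before TIF5 alone (7.41%). That pattern was not compared with the known consensus of Abf1, so its matches do not show where Abf1 sites are present or absent. A match is a description of letters and no evidence of binding.

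Among the 8 genes, PRT1 itself had the largest difference between strains. Its level was 4948, 5057 and 4449 CPM in the 3 libraries of [PRT1]. It was 625, 715 and 556 CPM in rpc128-1007, and 600, 604 and 540 CPM in wt. In [RBS1] it was 654, 743 and 594 CPM, and in [RBS1-R3H] it was 636, 654 and 572 CPM. The libraries of [PRT1] lay far above all others, and the other 4 strains overlapped their neighbours in the order of levels. In [PRT1] against rpc128-1007 the log2 fold change was 2.93 (standard error 0.11, edgeR adjusted p = 1.38e-09), or 7.62-fold with a 95% interval of 6.47-fold to 8.99-fold. Against wt it was 3.05 (standard error 0.11) and against [RBS1] 2.86 (standard error 0.11). Reads from the plasmid and the chromosome are counted together, and in a bulk culture fewer cells with the plasmid and fewer transcripts per cell cannot be told apart.

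PRE10, whose 3′ part lies on the same insert, was at 1606, 1767 and 2079 CPM in [PRT1] and at 244, 223 and 295 CPM in rpc128-1007. Its log2 fold change was 2.84 (standard error 0.14, edgeR adjusted p = 2.97e-08), and the file does not show which part of the gene the reads covered.

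**Figure D1:**
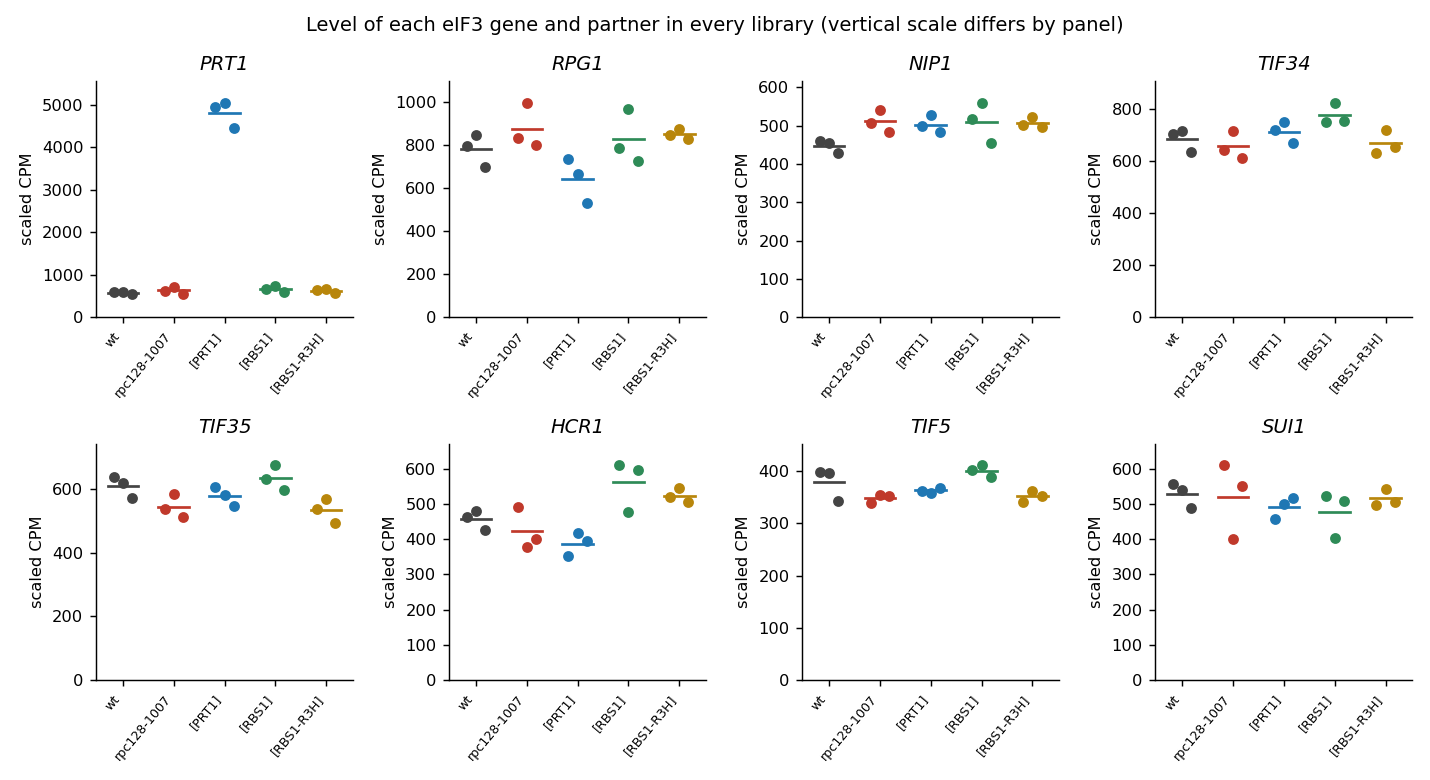
Scaled CPM of the 8 genes in each of the 15 libraries, with 1 panel a gene, dots for libraries in the order of replicate number and a bar for the mean of each strain (vertical axes start at 0 and differ in range). PRT1 lies between 4449 and 5057 CPM in [PRT1] and at or below 743 CPM elsewhere, while every other gene spans at most a 1.88-fold range over all libraries.

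In the fit reported here, no partner of PRT1 passed the test as higher where PRT1 was raised. Of the 7 other genes, none passed the test as higher and RPG1 passed as lower in [PRT1] than in rpc128-1007. With PRT1, 2 of 8 genes passed the test there, in edgeR as in DESeq2 and limma-voom, and over all tested genes 21.8% passed. The median log2 fold change of the 7 partners was -0.02, beside 0.02 over all tested genes. Their fold changes ranged from 0.734 to 1.08, and the highest upper limit of any 95% interval was 1.22-fold, for TIF34. At this depth a rise of the partners in step with the 7.62-fold rise of PRT1 mRNA would lie far outside those intervals. Proteins were not measured in these libraries.

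Among the core subunits, RPG1 stood out. It encodes the largest subunit of the complex. Its levels were 738, 667 and 531 CPM in [PRT1] and 837, 1000 and 800 CPM in rpc128-1007, so that the libraries of the 2 strains did not overlap. The log2 fold change was -0.45 (standard error 0.13, edgeR adjusted p = 0.0244). RPG1 was at 797, 849 and 701 CPM in wt, where [PRT1] replicate 1 overlaps. Against wt the log2 fold change was -0.28 and against [RBS1] -0.36, and neither passed the test (edgeR adjusted p = 0.194 and 0.0785). DESeq2 called RPG1 in [PRT1] against [RBS1] (log2 fold change -0.37, DESeq2 adjusted p = 0.0379).

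The call of RPG1 in [PRT1] was lost in 5 of the 25 alternatives. Some of the 25 leave out only a library of a strain not compared here, and none of these lost the call. The edgeR adjusted p was 0.103 without rpc128-1007 replicate 2, 0.0609 without [PRT1] replicate 2, 0.131 without [PRT1] replicate 3, 0.0542 without replicate 2 of rpc128-1007 and [RBS1] together and 0.0679 in a fit of these 2 strains only. The log2 fold change was -0.34, -0.45, -0.31, -0.34 and -0.45 in the same order, so that it was as large as reported without [PRT1] replicate 2 and in the fit of 2 strains. RPG1 is the longest of the 8 genes, its highest library was rpc128-1007 replicate 2 and its lowest was [PRT1] replicate 3, which are 2 of the libraries that deviate with gene length. With the length trend removed from every library, the log2 fold change was -0.42 (edgeR adjusted p = 0.00394), against wt it was -0.35 (edgeR adjusted p = 0.0235) and against [RBS1] -0.44 (edgeR adjusted p = 0.00380).

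The remaining core genes differed little between [PRT1] and its parent. NIP1, whose product binds eIF1 and eIF5, was at 500, 527 and 482 CPM in [PRT1] and 508, 542 and 484 CPM in rpc128-1007 (log2 fold change -0.02, 95% interval -0.19 to 0.14). TIF34, encoding a ring-shaped WD-repeat protein that sits on eIF3b, was at 720, 749 and 672 CPM in [PRT1] and 643, 717 and 614 CPM in rpc128-1007 (log2 fold change 0.12, 95% interval -0.06 to 0.29). TIF35, whose product carries an RNA recognition motif and binds Tif34, was at 608, 584 and 547 CPM against 539, 584 and 512 CPM (log2 fold change 0.09, 95% interval -0.08 to 0.26). For all 3 genes the libraries of the 2 strains overlapped. TIF34 passed as higher in 1 of 25 alternatives, with the length trend removed and a replicate block added (edgeR adjusted p = 0.0471). The replicate numbers did not pair the libraries of these 2 strains.

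Nor did the loosely bound partners pass the test. HCR1 was at 352, 417 and 394 CPM in [PRT1] and 492, 380 and 401 CPM in rpc128-1007. TIF5 was at 363, 359 and 368 CPM against 339, 355 and 352 CPM, which do not overlap but differ by a log2 fold change of only 0.06 (standard error 0.07). SUI1 was at 457, 500 and 516 CPM against 610, 401 and 550 CPM. Its low value in rpc128-1007 belongs to replicate 2, and SUI1 is the shortest of the 8 genes.

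**Figure D2:**
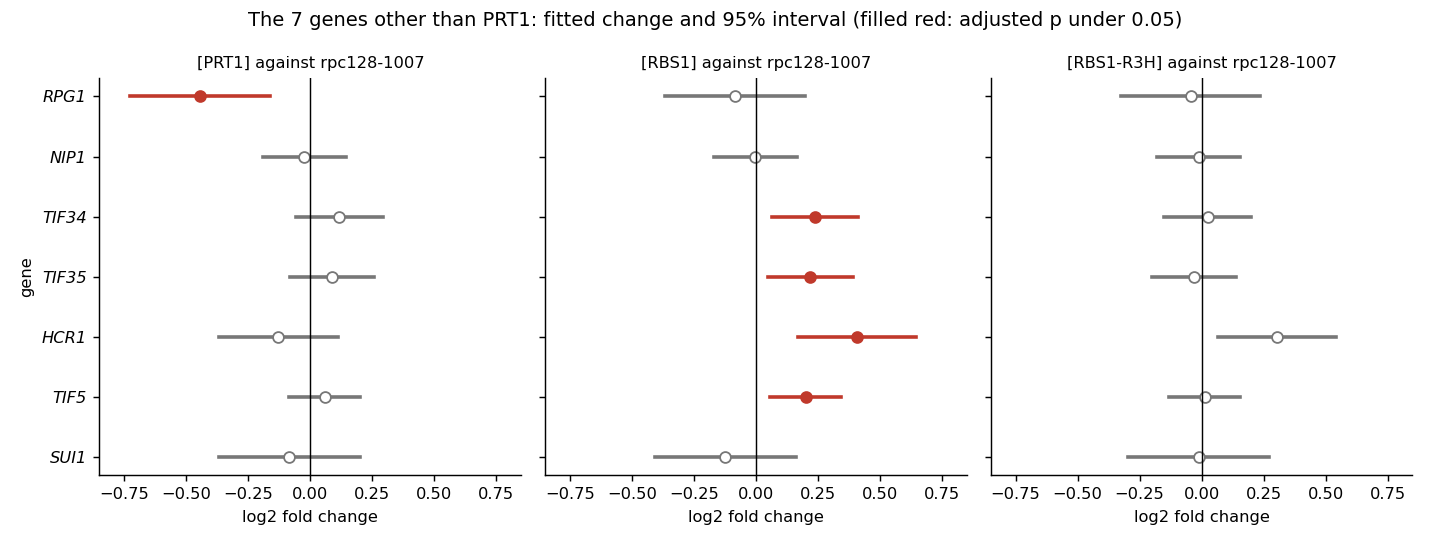
Fitted log2 fold change (dot) and 95% interval (line) of the 7 genes other than PRT1 in the 3 strains with a multicopy plasmid, each against rpc128-1007, from 1 edgeR fit over 15 libraries. Filled red dots passed an adjusted p of 0.05: RPG1 lies below 0 with PRT1, while TIF34, TIF35, HCR1 and TIF5 lie above 0 with RBS1, and none passed with RBS1-R3H.

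Counts per length allow genes to be compared with each other. In wt, the level of PRT1 was 254 ± 15.6 CPM per kilobase of coding length (SD, n = 3), close to RPG1 with 275, 293 and 242 in its 3 libraries. NIP1 was lowest with 184 ± 6.71. TIF34 stood at 658 ± 41.8 and TIF35 at 740 ± 40.8 CPM per kilobase, so that the genes of the 2 small subunits lay above those of the 3 large ones. HCR1 was at 572 ± 35.4, TIF5 at 311 ± 25.8 and SUI1 at 1617 ± 109 CPM per kilobase. These differences between genes can also hold effects of length and base composition on the libraries.

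The ratio of PRT1 to the mean of the other 4 core genes, per length, was 0.548 ± 0.00142 in wt, 0.610 ± 0.0299 in rpc128-1007, 0.576 ± 0.0232 in [RBS1] and 0.605 ± 0.0260 in [RBS1-R3H] (SD, n = 3 each). In [PRT1] it was 4.63 ± 0.0740, with 4.58 in the lowest library and 4.72 in the highest. Per length, PRT1 thus lay below the mean of its core partners in 4 strains and above each of them in [PRT1]. Taken alone, the reference gene set the size of the ratio in [PRT1], from 2.99 against TIF35 to 10.2 against NIP1. The mean of the 4 reference genes was 454 ± 27.7 CPM per kilobase in [PRT1] and 451 ± 35.9 in rpc128-1007.

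**Figure D3:**
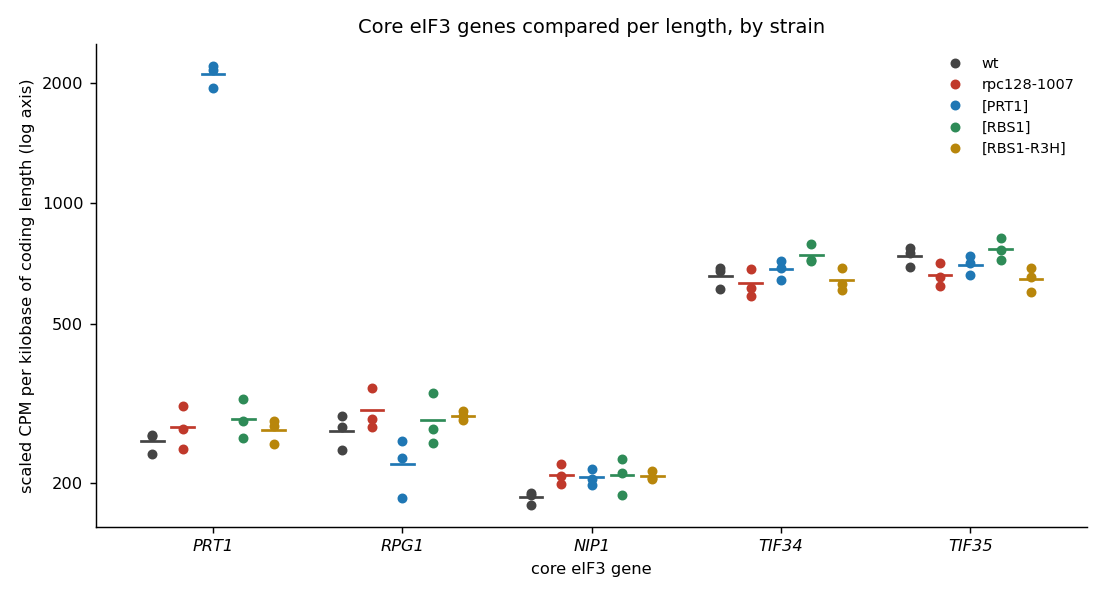
Scaled CPM per kilobase of coding length (log axis) for the 5 core eIF3 genes, with 1 dot a library, a bar for the mean and 1 colour a strain. PRT1 in [PRT1], with a mean of 2102, lies above every other core gene, whereas the means of the 4 other genes form the same order in all 5 strains, from NIP1 (lowest) to RPG1, TIF34 and TIF35, although single libraries depart from it in [PRT1] and [RBS1-R3H].

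Between the mutant with empty vector and the complemented control, none of the 8 genes passed the test. In rpc128-1007 against wt, 0 of 8 genes passed in edgeR, and 18.4% of all tested genes did. DESeq2 and limma-voom called 0 each. At an unadjusted p under 0.05 there was 1 gene, NIP1. The share of all tested genes at an unadjusted p under 0.05 was not counted in any comparison, so such counts are descriptions only. NIP1 was at 508, 542 and 484 CPM in rpc128-1007 and 460, 455 and 430 CPM in wt, without overlap (log2 fold change 0.19, standard error 0.08, edgeR adjusted p = 0.112). Replicate numbers paired the libraries of these strains, and with the replicate block NIP1 (log2 fold change 0.19, edgeR adjusted p = 0.0229) and TIF35 (-0.16, edgeR adjusted p = 0.0338) passed. The block also raised calls over all tested genes, from 1074 to 1616. NIP1 is long at 2439 bases, and its log2 fold change was 0.11 with the length trend removed (edgeR adjusted p = 0.259).

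With RBS1, unlike with PRT1, some partners passed as higher. In [RBS1] against rpc128-1007, 4 of 8 genes passed, all higher, whereas 29.7% of all tested genes passed in either direction. The genes were HCR1, TIF34, TIF35 and TIF5, and the median log2 fold change of the 8 genes was 0.14, beside -0.01 over all tested genes. The product of HCR1 is known for parts in both initiation and translation termination. HCR1 was at 611, 478 and 598 CPM in [RBS1] and 492, 380 and 401 CPM in rpc128-1007 (log2 fold change 0.41, standard error 0.11, edgeR adjusted p = 0.0133). Its lowest [RBS1] library, replicate 2, lay under the highest of rpc128-1007.

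TIF34 was at 749, 826 and 753 CPM in [RBS1], above 643, 717 and 614 CPM in rpc128-1007 (log2 fold change 0.24, standard error 0.08, edgeR adjusted p = 0.0401). TIF35 was at 631, 676 and 597 CPM against 539, 584 and 512 CPM (log2 fold change 0.22, standard error 0.08, edgeR adjusted p = 0.0496). TIF5 was at 402, 411 and 390 CPM against 339, 355 and 352 CPM (log2 fold change 0.20, standard error 0.07, edgeR adjusted p = 0.0348). The libraries of these 3 genes did not overlap between the strains, and each gene was 1.15-fold to 1.18-fold higher. The share of all tested genes without overlap was not counted in any comparison, so lack of overlap is a description only. PRT1 (log2 fold change 0.07), RPG1 (-0.08), NIP1 (-0.0023) and SUI1 (-0.12) did not pass. Of the 4 genes that passed, TIF35 and TIF5 held AAAATTTT in front and TIF34 and HCR1 did not.

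These 4 calls lay near the threshold, and leaving out libraries removed them in part. Without [RBS1] replicate 1, 0 genes passed in edgeR, and a fit of the 2 strains only also gave 0. The count was 1 without rpc128-1007 replicate 1 or 3 or [RBS1] replicate 2 or 3, and 2 without wt replicate 1, rpc128-1007 replicate 2 or [PRT1] replicate 1. Without both libraries that stood apart, the replicates 2 of rpc128-1007 and [RBS1], HCR1 alone passed. The log2 fold changes stayed above 0 in each of 25 alternatives, from 0.33 to 0.53 for HCR1, from 0.19 to 0.33 for TIF34, from 0.17 to 0.31 for TIF35 and from 0.18 to 0.29 for TIF5. Replicate numbers also paired these libraries, and the block called the same 4 genes. With the length trend removed TIF35 did not pass (log2 fold change 0.19, edgeR adjusted p = 0.136), and it passed with the block added (0.19, edgeR adjusted p = 0.0137).

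**Figure D4:**
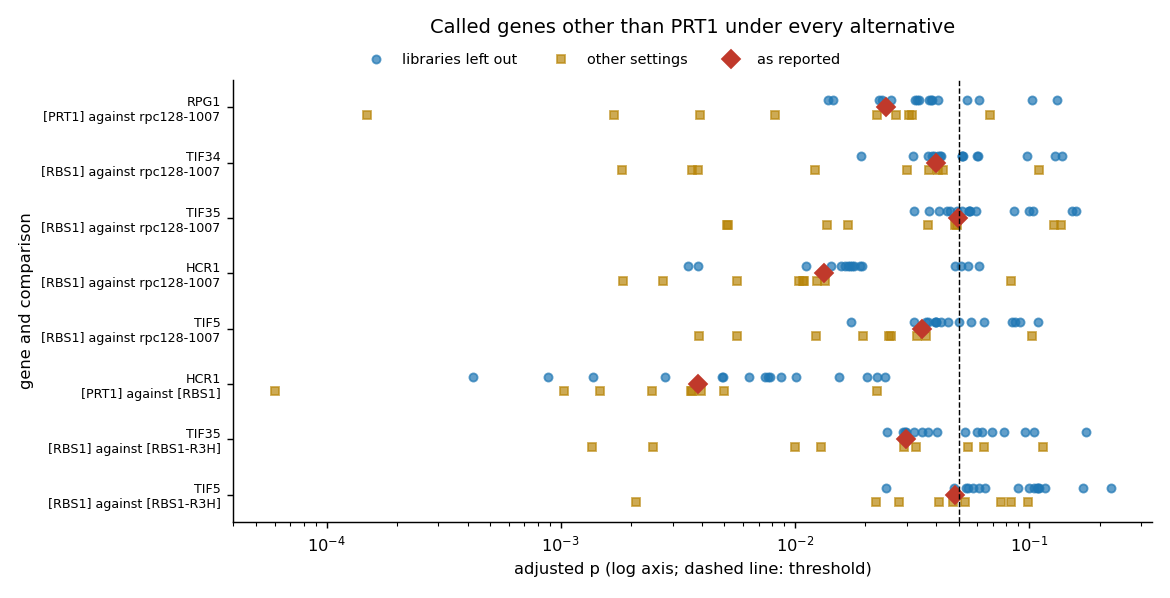
Adjusted p (log axis) of the 8 calls among the 7 partners, as reported (diamond), with libraries left out (circles) and under other settings (squares), beside the threshold of 0.05 (dashed line). HCR1 in [PRT1] against [RBS1] stays left of the line throughout, with a highest value of 0.0243, and each other row has points on both sides.

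The 2 suppressor strains differed directly in HCR1. In [PRT1] against [RBS1], 2 of 8 genes passed, PRT1 and HCR1, and 16.3% of all tested genes did. HCR1 was 352, 417 and 394 CPM in [PRT1] and 611, 478 and 598 CPM in [RBS1], without overlap (log2 fold change -0.54, standard error 0.11, 95% interval -0.78 to -0.30, edgeR adjusted p = 0.00385). The call held in all 25 alternatives, with a log2 fold change from -0.64 to -0.47. TIF34 (by a narrow margin) and TIF5 did not overlap either, at log2 fold changes of -0.12 and -0.14, and did not pass (edgeR adjusted p = 0.366 and 0.172).

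HCR1 was also the gene whose level differed most among strains after PRT1, by 1.45-fold from the lowest to the highest mean. Its mean fell in the order [RBS1] 562, [RBS1-R3H] 524, wt 457, rpc128-1007 424 and [PRT1] 388 CPM, and all neighbours in that order overlapped except [RBS1-R3H] and wt. In [RBS1-R3H] it was 520, 545 and 506 CPM, above each library of rpc128-1007 (log2 fold change 0.31, standard error 0.11, edgeR adjusted p = 0.0980). A test of any difference among the 5 strains called 2 of the 8 genes, PRT1 and HCR1 (edgeR adjusted p = 0.00622), beside 45.9% of all tested genes. RPG1, TIF35 and TIF5 had edgeR adjusted p of 0.0700, 0.0665 and 0.0900 in that test, and SUI1 0.821.

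The inactive allele set the RBS1 values in context. In [RBS1-R3H] against rpc128-1007, 0 of 8 genes passed in edgeR and 11.5% of all tested genes did. HCR1 was the only gene at an unadjusted p under 0.05, limma-voom called 0, and DESeq2 called HCR1 (DESeq2 adjusted p = 0.0447). The median log2 fold change of the 8 genes was -0.01.

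In [RBS1] against [RBS1-R3H], 2 of 8 genes passed and 27.9% of all tested genes did. TIF35 was at 631, 676 and 597 CPM in [RBS1] and 538, 568 and 495 CPM in [RBS1-R3H] (log2 fold change 0.25, standard error 0.08, edgeR adjusted p = 0.0299). TIF5 was at 402, 411 and 390 CPM against 341, 363 and 352 CPM (log2 fold change 0.19, standard error 0.07, edgeR adjusted p = 0.0484). TIF34 was 749, 826 and 753 CPM against 632, 719 and 657 CPM, without overlap and without passing (log2 fold change 0.21, edgeR adjusted p = 0.0672). Libraries of these strains were paired by number. With the replicate block, which raised calls over all tested genes from 1630 to 2089, TIF34 passed too (edgeR adjusted p = 0.00771). The count among the 8 genes was 0 without wt replicate 2, [PRT1] replicate 2 or 3, [RBS1] replicate 1 or 2, or [RBS1-R3H] replicate 1 or 3. It was also 0 with the length trend removed, where the log2 fold change was 0.21 for TIF35 and 0.16 for TIF5. With the length trend removed and the block added, 4 genes passed, among them TIF35 (0.21, edgeR adjusted p = 0.0100) and TIF5 (0.16, edgeR adjusted p = 0.0412). The count was 1, TIF35, without wt replicate 1, rpc128-1007 replicate 3, [PRT1] replicate 1, [RBS1] replicate 3 or [RBS1-R3H] replicate 2. HCR1, by contrast, was close in the 2 strains (log2 fold change 0.10, 95% interval -0.14 to 0.34).

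Against wt, the strains with a multicopy plasmid showed few differences. In [PRT1] against wt, 1 of 8 genes passed, PRT1, and 12.0% of all tested genes did. With the replicate block, which raised calls over all tested genes from 700 to 1229, RPG1 was also lower (log2 fold change -0.28, edgeR adjusted p = 0.0384). The numbers paired the libraries of these strains, but not those of all strains in that fit. In [RBS1] against wt, 0 of 8 passed in edgeR, beside 10.8% of all tested genes, and DESeq2 and limma-voom called 0 each. In [RBS1-R3H] against wt, 0 of 8 passed in edgeR, beside 22.9% of all tested genes, and DESeq2 and limma-voom called 0 each. At an unadjusted p under 0.05, for which no share of all genes was counted, there were 3 (NIP1, TIF34 and HCR1) and 2 (NIP1 and TIF35) in these 2 comparisons. NIP1 had a log2 fold change of 0.17 to 0.19 in the mutant and in all 3 strains with a multicopy plasmid against wt, comparisons that share the wt libraries.

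SUI1 differed least between strains, by 1.11-fold from the lowest to the highest mean. It was at 558, 540 and 489 CPM in wt, 521, 402 and 509 CPM in [RBS1] and 498, 543 and 507 CPM in [RBS1-R3H]. Every pair of neighbours in its order of strains overlapped. Its coefficient of variation within rpc128-1007, 20.6%, was the highest of any of the 8 genes in any strain, and the lowest was 1.19% for TIF5 in [PRT1].

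Other translation factors were read for comparison, 33 genes of which 32 were tested. In rpc128-1007 against wt, 6 were higher and none lower, and in [PRT1] against rpc128-1007, 7 were lower and none higher. In [RBS1] against rpc128-1007, 3 were higher and 6 lower, and in [RBS1-R3H] against rpc128-1007, 4 were lower and none higher. In the same order, these were 18.8%, 21.9%, 28.1% and 12.5% of the tested factors, close to the shares of all tested genes of 18.4%, 21.8%, 29.7% and 11.5%. Several of these genes belong to families of near-identical copies, such as TIF1 and TIF2, whose reads may have been split or shared. The genes of the 3 eIF2 subunits, SUI2, SUI3 and GCD11, did not pass in these comparisons. Their median log2 fold change in [PRT1] against rpc128-1007 was -0.01.

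By the rule for named genes, GCN3 and EAP1 were among the called factors. GCN3 encodes the regulatory subunit of eIF2B, the exchange factor of eIF2. It was at 218, 170.5 and 182 CPM in rpc128-1007 and 131, 128 and 121 CPM in wt (log2 fold change 0.58, standard error 0.08, edgeR adjusted p = 0.000189). With PRT1 it was 123, 125 and 130 CPM (log2 fold change -0.60), with RBS1 129, 135 and 133 CPM (-0.52), and with RBS1-R3H 129, 132 and 133 CPM (-0.54). EAP1, which encodes a protein that binds eIF4E and competes with eIF4G, was at 198, 163 and 158 CPM in rpc128-1007 and 133, 118 and 121 CPM in wt (log2 fold change 0.48). With PRT1 its log2 fold change against rpc128-1007 was -0.71, with RBS1 it was -0.68, and with the inactive allele -0.74. Both genes were thus lower in all 3 of these strains, in comparisons that share the libraries of rpc128-1007.

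DED1, encoding a helicase that helps ribosomes scan, had another pattern. It was at 497, 516 and 479 CPM in [RBS1], 302, 391 and 372 CPM in rpc128-1007 and 301, 279 and 269 CPM in wt. In [PRT1] it was 398, 434 and 437 CPM and in [RBS1-R3H] 360.4, 384 and 417 CPM. Against wt it was higher in [RBS1] (log2 fold change 0.81), [PRT1] (0.58), [RBS1-R3H] (0.45) and rpc128-1007 (0.33), with edgeR adjusted p of 0.000112, 0.000660, 0.00282 and 0.0242, in comparisons that share the wt libraries. The log2 fold change was 0.49 in [RBS1] against rpc128-1007 and 0.36 against [RBS1-R3H] (edgeR adjusted p = 0.00159 and 0.00985). TIF11, the gene for eIF1A, was higher in the same comparisons, by a log2 fold change of 0.21 in each (edgeR adjusted p = 0.0370 and 0.0421). CLU1, whose product has been found with eIF3, was lower in [RBS1] than in [RBS1-R3H] (log2 fold change -0.28, edgeR adjusted p = 0.0198).

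Across the 15 libraries, the genes whose log2 levels followed the mean profile of the 7 partners most closely were TUP1 (Pearson's r = 0.89), GCD11 (0.88), RBG2 (0.88), YIP1 (0.85) and GSP1 (0.84). The libraries share strains, depth and length trends, so the values describe likeness only. Between pairs of the 7 partners, Pearson's r ran from -0.49 (TIF34 and SUI1) to 0.82 (TIF34 and TIF35), so the mean profile is not that of each partner. GCD11, the gene for the gamma subunit of eIF2, was at 581, 603 and 550 CPM in [RBS1] and 517, 546 and 489 CPM in rpc128-1007.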

How the data were processed

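Poly(A)-selected mRNA of 5 strains with 3 libraries each had been sequenced. Per the labels and methods, the authors mapped reads with TopHat2 2.0.11 to EF4, counted them on genes with GenomicAlignments and deposited raw counts without normalization. They used DESeq2 1.24.0, and counting mode and strandedness are not given in the sources used here. Strain and replicate were taken from the labels. Names and coding lengths came from R64, matched by systematic name for 5917 of 6600 identifiers, and the rest held 0.215% of counts.

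Genes were filtered with filterByExpr (minimum count 10, total 15), scaled by TMM and fitted with the quasi-likelihood F test of edgeR 4.0.16 in R 4.3.3 over all 15 libraries, with 9 contrasts of strain means. Benjamini-Hochberg adjustment covered 5851 genes and the threshold was 0.05. Each of the 8 genes had at least 2724 counts in every library, and counting error was not compared with the spread between libraries gene by gene. Alternatives were DESeq2 1.42.0, limma-voom (limma 3.58.1), library totals, median-ratio factors, no filter, the replicate block, removal of a loess trend with gene length (span 0.5), fits of the compared strains only and libraries left out. Counts of other factors under these alternatives were added after seeing the data. Scripts were tested on simulated data.

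The replicate number was taken to pair libraries where every same-numbered pair had a residual correlation over 0.1. This held in rpc128-1007 against wt (0.155 to 0.249), [RBS1] against rpc128-1007 (0.555 to 0.732), [PRT1] against wt (0.262 to 0.358) and [RBS1] against [RBS1-R3H] (0.158 to 0.314). No source names a shared batch. The block was fitted over all 15 libraries, including strains not paired by this rule, and libraries of different numbers were not compared. The 8 genes and all lists were chosen with earlier results of these data known. Besides the 8 genes, the text names the plasmid-borne and mutated genes, the markers URA3 and LEU2, GCN4, the 2 highest and 2 lowest called of the other factors in each comparison described, and the 5 genes most correlated with the partners' mean profile. RT-qPCR and tRNA data were not analysed here.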

Additional observations from a re-analysis of the deposited data

How the results depend on the processing

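No called gene changed direction in any of 25 alternatives, and of 61 uncalled gene and comparison pairs 23 changed sign in at least 1. PRT1 was called in [PRT1] under all of them, with a log2 fold change against rpc128-1007 of 2.85 to 3.03, and the median log2 fold change of its 7 partners, -0.02 as reported, ran from -0.0426 to 0.0381 and so turned sign. Counts called among the 8 genes moved as follows. DESeq2 gave 1 in [RBS1-R3H] against rpc128-1007, 3 in [PRT1] against [RBS1], 3 in [RBS1] against [RBS1-R3H] and 5 in the test of any difference. Over all tested genes DESeq2 called 808, 1057 and 1687 in the first 3 of these, beside 671, 955 and 1630 as reported. For the test of any difference, calls over all genes were not counted under the alternatives. Library totals shift the median of all genes to -0.12 in [RBS1-R3H] against wt and 0.14 in [RBS1] against [RBS1-R3H]. They gave 2 in rpc128-1007 against wt, 2 in [RBS1-R3H] against wt and 4 in [PRT1] against [RBS1]. They also gave 3 in [RBS1] against [RBS1-R3H] and 5 in the test of any difference. In the order of these comparisons, library totals called 1191, 1722, 1083 and 2034 of all tested genes, beside 1074, 1341, 955 and 1630 as reported. Median-ratio factors gave 1 and no filter gave 0 in [RBS1] against [RBS1-R3H].

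With the replicate block the counts were 2 in rpc128-1007 against wt, 2 in [PRT1] against wt, 3 in [RBS1] against wt and 2 in [RBS1-R3H] against wt. They were 3 in [PRT1] against [RBS1], 3 in [RBS1] against [RBS1-R3H] and 6 in the test of any difference. Of these, the numbers paired the libraries in rpc128-1007 against wt, [PRT1] against wt and [RBS1] against [RBS1-R3H] only. Removal of the length trend gave 1 in [RBS1-R3H] against rpc128-1007, 2 in [PRT1] against wt, 3 in [PRT1] against [RBS1], 3 in [RBS1] against rpc128-1007 and 0 in [RBS1] against [RBS1-R3H]. With the block added these were 1, 2, 3, 5 and 4, and [RBS1] against wt had 4, [RBS1-R3H] against wt 1 and the test of any difference 6. In that setting [PRT1] against rpc128-1007 had 3, PRT1, RPG1 and TIF34. Over all genes tested, removal of the length trend gave 868, 857, 1099, 1836 and 1699 calls in the order first named. As reported these were 671, 700, 955, 1737 and 1630, and with the block added 1301, 1445, 1583, 2382 and 2300. Fits of the compared strains only gave 1 in [PRT1] against rpc128-1007, 0 in [RBS1] against rpc128-1007 and 0 in [RBS1] against [RBS1-R3H]. Without replicate 2 of rpc128-1007 and [RBS1] together the counts were 1, 1 and 0 in the same order, and 1 in [RBS1] against wt. Over all tested genes, fits of the compared strains only called 963, 1012 and 1402 in that order, beside 1278, 1737 and 1630 as reported.

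With each library left out in turn, the count ranged from 1 to 2 in [PRT1] against rpc128-1007, from 0 to 4 in [RBS1] against rpc128-1007, from 0 to 1 in [RBS1-R3H] against rpc128-1007, from 0 to 1 in [RBS1] against wt, from 0 to 2 in [RBS1] against [RBS1-R3H], from 2 to 3 in [PRT1] against [RBS1] and from 2 to 3 in the test of any difference. Calls among the other factors, 33 over the 9 comparisons, came to 51 with library totals, 53 with the block, 61 with the block and length trend and 20 with the compared strains only. The ratio of PRT1 to its core partners in [PRT1] was 4.55 without the length trend, and 9.54 against RPG1, 10.2 against NIP1, 3.07 against TIF34 and 2.99 against TIF35. The cause of these shifts was not tested, and the fits that leave libraries out also hold fewer libraries.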

Other observations

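GCN4, the gene for the activator of amino acid synthesis whose translation depends on initiation factors, was at 1362 ± 73.3 CPM in rpc128-1007 and 1057 ± 20.7 CPM in wt (SD, n = 3 each), a log2 fold change of 0.37 (edgeR adjusted p = 0.00281). Against rpc128-1007 it was lower in [PRT1] (log2 fold change -0.22, edgeR adjusted p = 0.0387) and higher in [RBS1-R3H] (0.26, edgeR adjusted p = 0.0309). In [RBS1] its log2 fold change was 0.03 (edgeR adjusted p = 0.818).

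Among 10 tested genes of elongation and termination, TEF4, chosen for mention after its values were seen and encoding a subunit of elongation factor eEF1B, was the 1 called in rpc128-1007 against wt (log2 fold change 0.43, edgeR adjusted p = 0.00603). It was lower in all 3 strains with a multicopy plasmid than in rpc128-1007, in comparisons that share those libraries. HYP2, the gene for eIF5A, was listed at 0 in all 15 libraries and was not tested.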
